A study of Mus musculus with 2 samples.

Results

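The 10 genes described here encode heat shock proteins and their partners, chosen by symbol from the 32285 genes listed in the deposited matrices. They are the stress-inducible Hsp70 pair Hspa1a and Hspa1b, the constitutive Hsp70 Hspa8, the Hsp70 partners Dnajb1, Hsph1 and Bag3, the Hsp90 gene Hsp90aa1, the mitochondrial chaperonins Hspd1 and Hspe1, and the small heat shock protein Hspb1. Each symbol occurred once in the feature list. Male mice of the inbred strain C57BL/6 gave the pituitaries, at 2 months (young) or 20 months (old) of age. For each age, glands of 10 mice were pooled before a single droplet-based single-cell library was made, so the design holds 1 sample per age. No genetic change or treatment is named in the labels. Glands were kept cold in storage solution, minced, dissociated with enzymes and a mechanical dissociator, and cleared of red blood cells before loading, per the labels' protocols.

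Heat shock proteins are chaperones: they bind unfolded or damaged proteins, help them refold, or hand them on for degradation. Heat shock factor 1 binds short repeated elements in the promoters of the inducible members and switches them on within minutes when proteins are damaged by heat, oxidation or handling, while members such as Hspa8 are made in nearly all cells without stress. In the pituitary, hormone-secreting cells fold large amounts of secreted protein, and enzymatic dissociation of fresh tissue is itself known to induce heat shock and immediate early genes in many tissues.

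The sequences below are shown because the heat shock element is what the inducible members are known to share, and because they show how alike Hspa1a and Hspa1b are before their start. They are RefSeq reference sequence of the mouse build GRCm38.p6, which is not the build named for the count files, and lie upstream of an annotated transcription start of each gene. Capitals mark matches to GAANNTTC or TTCNNGAA, the 2 orders of the repeated unit of a heat shock element, and each reads the same on both strands.

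Hspa1a, chr17:34972157-34972316, minus strand, positions -160 to -1: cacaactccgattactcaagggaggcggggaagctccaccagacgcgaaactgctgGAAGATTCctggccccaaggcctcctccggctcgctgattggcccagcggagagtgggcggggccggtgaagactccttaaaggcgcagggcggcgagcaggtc

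Hspa1b, chr17:34959239-34959398, minus strand, positions -160 to -1: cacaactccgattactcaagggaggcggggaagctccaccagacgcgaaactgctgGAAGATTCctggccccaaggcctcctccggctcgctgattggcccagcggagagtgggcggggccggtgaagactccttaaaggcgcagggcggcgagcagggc

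Hspe1, chr1:55088054-55088081, plus strand, positions -94 to -67: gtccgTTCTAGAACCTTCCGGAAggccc

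Hspd1, chr1:55088054-55088081, minus strand, positions -149 to -122: gggccTTCCGGAAGGTTCTAGAAcggac

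Hspb1, chr5:135887802-135887829, plus strand, positions -117 to -90: GAAGTTTCcagatgggggcaGAACCTTC

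Hsph1, chr5:149636352-149636379, minus strand, positions -43 to -16: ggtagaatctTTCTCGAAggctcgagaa

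In windows of 300 bases, from 250 before to 50 after the start, Hspa1a and Hspa1b differed at 4 positions: C207T, T204C and T2G upstream and C26T downstream, with the Hspa1a base first and positions counted from the start. Only T2G falls in the stretch shown. Upstream identity was 98.8% over 250 bases, and both copies hold the same match, GAAGATTC, from -104 to -97. Hspd1 and Hspe1 lie head to head, with starts 216 bases apart, and the stretches shown for them are the same bases read on opposite strands, so they share 1 element. Hspd1 has a second annotated start, whose window (chr1:55088194-55088493) held no match. The start used here is the one whose window holds a run of 3 units. Promoter windows were found for 8 of the 10 genes, all but Hspa8 and Hsp90aa1. A match to either pair of units was present in windows of 7 of these 8 genes, all but Dnajb1, and in 15.1% of all 32851 windows. A run of 3 units (GAANNTTC with NNGAA after it, or TTCNNGAA with NNTTC after it, searched on both strands and containing the pairs above) was present for Hsph1, Hspe1 and Hspd1 and in 0.603% of all windows. The run of Hsph1 and the match of Bag3 lie after the start, and a match describes the letters only.

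The counts are unique molecular identifiers (UMIs), each standing for 1 captured transcript. Levels are given as CPM, the UMIs of a gene summed over the cells of a class and scaled to a class total of 1000000, with 7 hormone and 13 mitochondrial genes left out of the total. Since the assay tags transcript 3' ends, UMIs were not divided by gene length, and levels are compared between cells or libraries rather than between genes. Total depth was 154510099 UMIs at 2 months and 138427393 at 20 months. Filters left 8531 and 9017 barcodes, of which 1 and 5541 fell in a cluster with the profile of empty droplets and were set aside as free RNA. Of the rest, 8530 young and 3476 old, 15 barcode sequences occurred in both libraries. Clusters were named from markers, as 17 classes called by a cell type followed by "like", and the 10 that reached 50 cells at both ages were compared. These 10 hold 8169 young and 3104 old cells, from 51 young pituicyte-like to 4251 young somatotroph-like cells, and every marker listed for a class was detected in it at both ages. Within classes, 1.05% to 33.3% of barcodes had under 0.5% of UMIs from the nuclear RNA Malat1. With 1 pooled library per age nothing could be tested: 95% intervals, given in square brackets, are exact, cover counting error only, and say nothing about differences between mice, pools or preparations.

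Hspa1a and Hspa1b, near-identical copies of the stress-inducible Hsp70, were highest in macrophage-like cells in both libraries. Hspa1a reached 5904 [5825 to 5985] CPM in young and 3042 [2969 to 3117] in old macrophage-like cells. The next class in the young library, corticotroph-like cells, had 2928, followed by somatotroph-like cells at 2792 and lactotroph-like cells at 2477. T or NK cell-like cells were lowest in the young library at 421, so the classes spanned 14.0-fold. Levels are without subtraction of free RNA, whose estimated share was 18.3% in these young cells. Empty droplets held Hspa1a as well, and how much of the lowest value is free RNA was not tested. In the old library endothelial cell-like cells came second at 2182 and stem cell-like cells last at 447, a span of 6.80-fold.

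The second copy had the same 7 highest classes in the same order at 2 months. Hspa1b measured 2339 CPM at 2 months and 1792 CPM at 20 months in macrophage-like cells, and 297 in young T or NK cell-like and 289 in old stem cell-like cells, the lowest class of each library. The transcripts of both copies share 58.8% (Hspa1a) and 62.3% (Hspa1b) of their 50-base words in the GENCODE annotation of GRCm38, but 0% within the last 500 bases, where 3' tags mostly fall. Whether the counting split reads between the copies was not tested, so the sum of both, called the inducible pair, is given beside each of them. The pair had 8244 [8149 to 8339] CPM in young and 4835 [4742 to 4929] in old macrophage-like cells.

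Hspa8, the constitutive Hsp70 of the cytosol, varied less between classes than the inducible pair. It ranged from 1324 in pituicyte-like to 4567 in macrophage-like cells of the young library, 3.45-fold, against 11.5-fold for the pair. In the old library it ranged from 1581 in stem cell-like to 3227 in macrophage-like cells, 2.04-fold, against 6.56-fold for the pair. Free RNA, which holds both Hspa8 and the pair, was not subtracted for these spans.

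Dnajb1, a J-domain protein that stimulates Hsp70 and is itself stress-inducible, was highest in corticotroph-like cells. Its level there was 3843 CPM at 2 months and 2062 CPM at 20 months, ahead of somatotroph-like cells at 2481 and 1909. Pituicyte-like cells had the lowest young level (219) and stem cell-like cells the lowest old one (492). Hsph1, an Hsp110 nucleotide exchange factor of Hsp70, was highest in somatotroph-like cells of the young library (660.3) and lactotroph-like cells of the old one (399), and lowest in stem cell-like cells of both (74.5 and 73.4). Bag3, a co-chaperone that links Hsp70 to selective autophagy, gave few UMIs. It stood at 201 in young and 83.7 in old macrophage-like cells and at no more than 71.6 in any other class. In B cell-like cells Bag3 rested on 5 young and 3 old UMIs, too few for a comparison.

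Hsp90aa1, the stress-responsive cytosolic Hsp90, was highest in macrophage-like cells of the young library (4625) and in corticotroph-like cells of the old library (3297). Pituicyte-like cells were lowest when young (844) and stem cell-like cells when old (1321). Hspd1, the Hsp60 subunit of the chaperonin of the mitochondrial matrix, was the most even of the 10 genes at 2 months, with a span of 1.99-fold, and spanned 2.39-fold at 20 months, between 147 in old monocyte-like and 352 in old corticotroph-like cells. Hspe1, its Hsp10 lid, was highest in somatotroph-like cells of both libraries (853 and 523) and lowest in endothelial cell-like cells (220.3 and 231).

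Hspb1, a small heat shock protein that holds unfolded proteins and binds the actin cytoskeleton, had the widest span of the 10 genes, led by other classes than the inducible pair. It was highest in stem cell-like cells of the young library (1888) and endothelial cell-like cells of the old one (1897). Each was second at the other age, and corticotroph-like cells came next (1257 and 857). Somatotroph-like, monocyte-like, T or NK cell-like and B cell-like cells had 31.6 to 92.5 in either library. Empty droplets of at most 100 UMIs held Hspb1 at 934 CPM at 2 months and 669 CPM at 20 months. Subtracting their profile left no UMIs of Hspb1 in 1 or both libraries in each of these 4 classes. In at least 1 library of each class the low value thus does not exceed what this profile would bring. The highest and lowest classes differed 59.8-fold at 2 months and 38.9-fold at 20 months, both against a low value of 1 of these 4 classes. After thinning every cell to 2000 UMIs, 69.2% [66.2 to 72.0] of young and 66.1% [60.2 to 71.6] of old stem cell-like cells had a UMI of Hspb1, against 6.80% [3.31 to 12.2] and 9.47% [5.51 to 14.9] of T or NK cell-like cells. Without thinning the shares were 87.5% and 89.2% in stem cell-like and 14.3% and 24.9% in T or NK cell-like cells, at median depths of 6388 to 7937 and 3998 to 5437 UMIs.

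**Figure D1:**
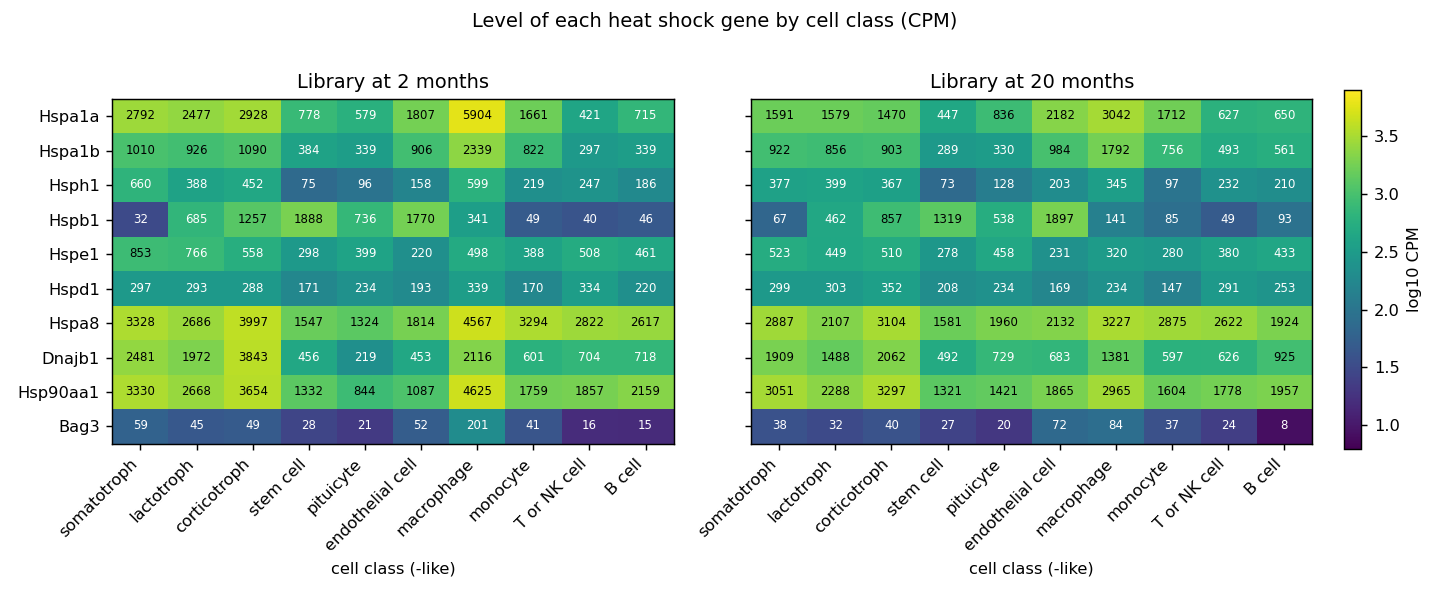
Level of each of the 10 genes (rows) in each compared cell class (columns), young library left and old library right. Numbers are CPM and colour is their log10: Hspa1a is highest in macrophage-like cells in both panels, Dnajb1 in corticotroph-like cells, and Hspb1 in stem cell-like and endothelial cell-like cells.

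Neighbouring classes in these orders were often not separable. Of the 9 steps between neighbours, intervals overlapped at 3 for young and 2 for old Hspa1a, at 9 for young Hspd1 and old Hspe1, and at 8 for Bag3 in each library. Hsp90aa1 in the young library was the most clearly ordered, with overlap at 1 step. Empty droplets also held the other members, with Hspa1a at 2925 CPM at 2 months and 1897 CPM at 20 months, Hspa8 at 4524 and 3277, and Dnajb1 at 3034 and 1979. The estimated share of free RNA in a class, from Gh or Pomc UMIs in cells that should lack them, lay between 5.47% in young somatotroph-like and 35.5% in old B cell-like cells.

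Classes with under 50 cells in a library give levels without a comparison. The inducible pair stood at 1371 in 43 young and 2413 in 150 old melanotroph-like cells, and at 2025 and 1359 in 65 and 33 gonadotroph-like cells. Fibroblast-like cells, 31 young and 39 old, had 1203 and 451. Erythroid cell-like barcodes, 51 and 45, had 1735 and 495, and neutrophil-like cells, 25 and 66, had 655 and 1102. The 146 young proliferating cell-like cells had 586 and the 38 old oligodendrocyte-like cells 785.

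Single cells of a class differed widely in the inducible pair. In young macrophage-like cells the 10th percentile was 427, the median 6887 and the 90th percentile 18394 CPM, and in old ones 352, 2569 and 11770.3. The lower ends were thus close while the median and upper end were lower in the old library. Somatotroph-like cells ran from 313 through 2822 to 9058 when young and from 233 through 1683 to 5485 when old. In endothelial cell-like cells the median was instead higher in the old library, at 2432 against 1119.8. The tenth of cells with the highest levels held 27.3% of the pair's UMIs in young and 40.1% in old macrophage-like cells, and 58.5% and 56.5% in stem cell-like cells.

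**Figure D2:**
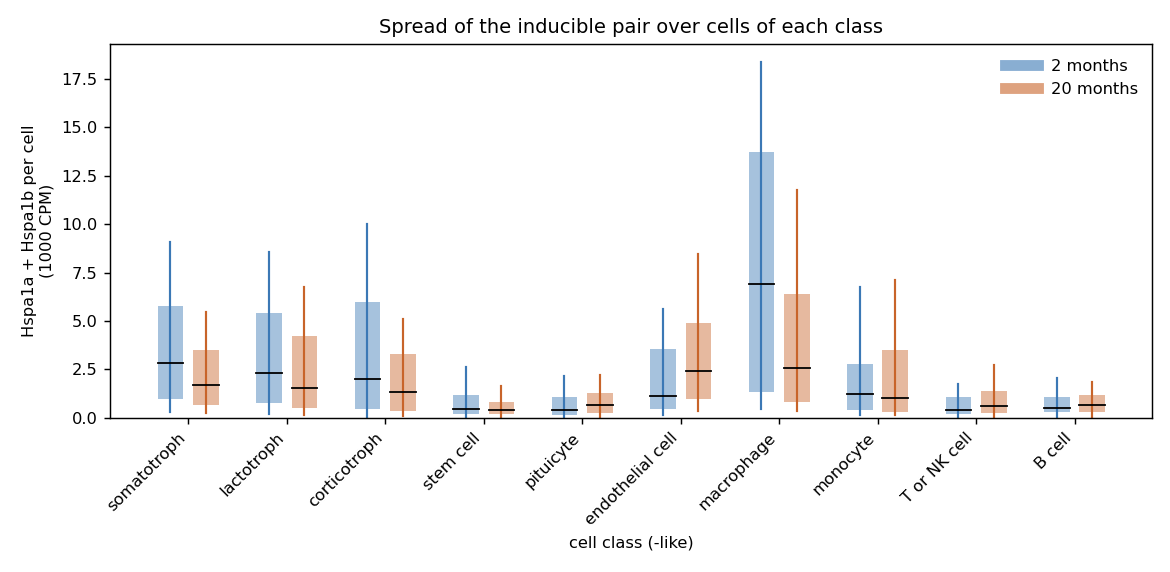
Level of Hspa1a plus Hspa1b in single cells, in 1000 CPM, for each compared class at 2 months (blue) and 20 months (orange). Lines span the 10th and 90th percentiles, boxes the 25th and 75th, and black bars mark medians: the young macrophage-like median is 6887 CPM and the old one 2569.

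Part of this spread lay between clusters of a class. Among the macrophage-like clusters, the one led by Ms4a7, Rgs1 and Ccl3 (450 young and 213 old cells) had the pair at 10431 and 6365, and the one led by Cx3cr1, Siglech and Gpr34, genes of microglia and related macrophages (197 and 111 cells), had 5358 and 3666. The remaining cluster, of 101 young and 88 old barcodes with 0.312% and 1.10% of UMIs from Malat1, had 622 and 1365. The old library was lower in the first and second and higher in the remaining one. Malat1-poor clusters of other classes were low as well: 178 young and 45 old corticotroph-like barcodes had 431 and 661, against 4239 and 2486 in the main corticotroph-like cluster. Whether these barcodes are damaged cells was not tested. Without barcodes under 0.5% Malat1, the pair's log2 difference, old minus young, was -0.77 in macrophage-like and -0.77 in corticotroph-like cells, against -0.77 and -0.76 with them.

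Most cells had a UMI of the pair. After thinning to 2000 UMIs a UMI of the pair was found in 89.3% [86.9 to 91.4] of young and 85.9% [82.2 to 89.1] of old macrophage-like cells, and in 59.2% [50.8 to 67.2] and 69.2% [61.7 to 76.1] of T or NK cell-like cells. Without thinning the shares were 94.1% and 94.4% in macrophage-like and 78.2% and 88.8% in T or NK cell-like cells. The thinned share was lower in the old library in 7 of the 10 classes, the unthinned one in 3. No class that lacks the pair was at hand to set a background for these shares.

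Between the ages, the members were lower in the old library most uniformly in macrophage-like cells. There, all 10 were below their young level, as were 29.7% of the 10971 genes with at least 20 UMIs. Of the 10, 7 were lower by at least 1.5-fold, a difference met by 4.32% of these genes, and none was higher by that much (21.8% of genes). The median of the 8 members outside the inducible pair was -0.64 on the log2 scale, old over young, against 0.22 for all genes in these cells. Within the class, all members were lower in the old library in the clusters led by Ms4a7 and by Cx3cr1. In the second of these, only Hspa1a, Hspb1 and Bag3 were past 1.5-fold lower. In the Malat1-poor cluster all members but Hspe1 were higher in the old library, such as Dnajb1 at 487 and 1004 CPM (young first). In the somatotroph-like cells, 4 of 10 were lower by 1.5-fold (9.13% of genes) and 1 was higher (11.6%). Over the 99 combinations of member and class with at least 20 UMIs, 17 were lower by 1.5-fold (8.28% over all genes) and 10 higher (17.0%). With doublets kept, 2 were higher, over 9 classes. Of the 99 combinations, 65 lay below 1, beside 29.7% to 52.2% of all genes by class. Among genes with at least 200 UMIs both 1.5-fold shares were smaller in every class, at 1.91% to 12.7% lower and 3.26% to 12.8% higher. No value is a test, since the libraries are single pools.

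**Figure D3:**
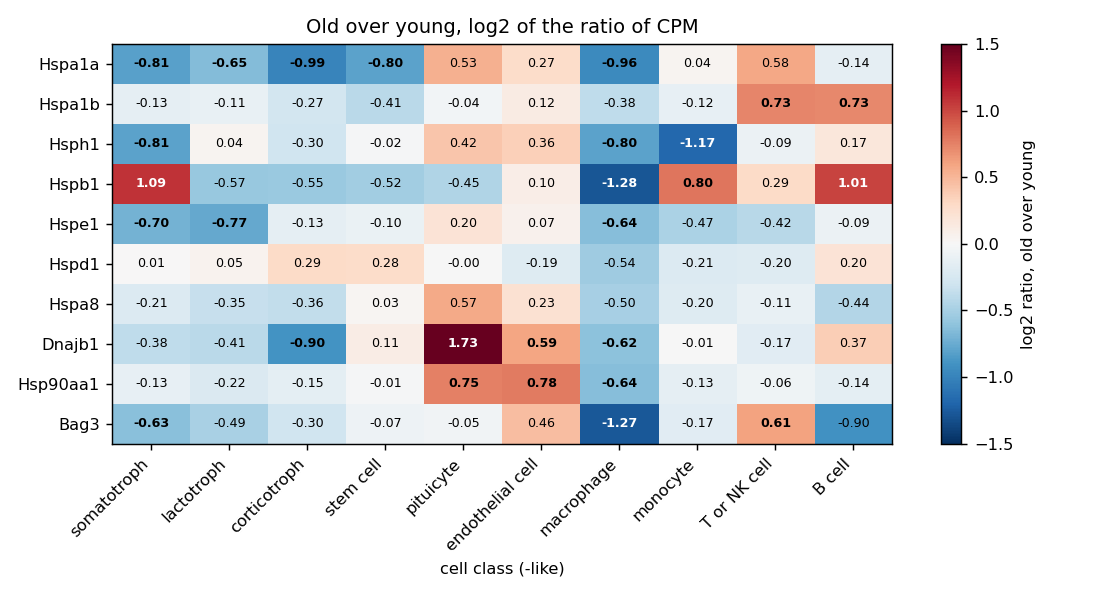
Log2 ratio of the old to the young level for each of the 10 genes (rows) and compared cell classes (columns), with blue lower and red higher in the old library. Bold values are past 1.5-fold and rest on at least 20 UMIs: all 10 values are negative in macrophage-like cells, while Hspb1 is 1.09 in somatotroph-like cells and Dnajb1 1.73 in pituicyte-like cells.

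Hspa1a was lower in the old library by at least 1.5-fold in 5 classes, the most of any member. In macrophage-like cells it measured 5904 CPM at 2 months and 3042 CPM at 20 months, 1.94-fold lower [1.89 to 2.00]. The corticotroph-like values, 2928 CPM at 2 months and 1470.5 CPM at 20 months, were 1.99-fold lower [1.93 to 2.06], the largest difference of this gene. It was 1.76-fold lower [1.72 to 1.79] in somatotroph-like, 1.74-fold lower [1.63 to 1.86] in stem cell-like and 1.57-fold lower [1.503 to 1.64] in lactotroph-like cells. The last fell short of 1.5-fold with hormones in the total (log2 -0.49) and at the lower clustering resolution (-0.40), and the stem cell-like one when each library was clustered alone (-0.51). The monocyte-like and B cell-like intervals included 1, and the gene was higher in the old library in pituicyte-like (1.44-fold higher [1.23 to 1.70]), endothelial cell-like (1.21-fold higher [1.10 to 1.32]) and T or NK cell-like cells (1.49-fold higher [1.28 to 1.74]). With doublets kept, these 3 differences lay below 0, at -0.02, -0.03 and -0.54 on the log2 scale. In that setting cells were clustered anew, so the classes differ in their other cells as well as in doublets.

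Hspa1b differed less. It was below 1 in 7 classes and past 1.5-fold lower in none (with the median gene set to 0 it passed in macrophage-like cells, at a log2 difference of -0.61, and with doublets kept in stem cell-like cells, at -0.62), with the lowest ratio of old to young in stem cell-like cells at 0.753 [0.692 to 0.819] and macrophage-like cells at 0.766 [0.737 to 0.796]. In somatotroph-like cells it measured 1010.4 CPM at 2 months and 922 CPM at 20 months, a ratio of 0.913 [0.889 to 0.937], which lay above 1 with hormones in the total. It was past 1.5-fold higher in T or NK cell-like cells, where it measured 297 CPM at 2 months and 493 CPM at 20 months, and in B cell-like cells, at 339 and 561. With doublets kept these log2 differences were 0.11 and 0.00, neither past 1.5-fold, against 0.73 and 0.73 without them. The share of all genes past 1.5-fold higher was 24.6% in T or NK cell-like and 27.8% in B cell-like cells, where 2 of 10 and 2 of the 9 measured members passed it, and those past 1.5-fold lower made up 5.40% and 8.39%, with no member among them. Of genes with at least 200 UMIs, 8.94% and 9.34% were past 1.5-fold higher, with 1 of 8 and 1 of 6 members. Those past 1.5-fold lower made up 1.91% and 6.04%, with no member.

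The constitutive Hspa8 passed 1.5-fold in no class, though some alternatives took it past in 3 classes, to log2 differences of -0.72 in macrophage-like and 0.64 in pituicyte-like cells with the median gene set to 0 and -0.64 in B cell-like cells with doublets kept. It was lower in the old library in 7 of 10 classes with intervals below 1, most in macrophage-like cells (4567 CPM at 2 months and 3227 CPM at 20 months, 1.42-fold lower [1.38 to 1.46]), and higher in pituicyte-like (1.48-fold higher [1.33 to 1.65]) and endothelial cell-like cells (1.17-fold higher [1.07 to 1.29]), the latter below 1 when each library was clustered alone. Somatotroph-like cells had 3328 CPM at 2 months and 2887 CPM at 20 months, a ratio of 0.867 [0.855 to 0.880], which lay above 1 with hormones in the total.

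The Hsp70 partners differed between classes in size and direction. Dnajb1 measured 3843 CPM at 2 months and 2062 CPM at 20 months in corticotroph-like cells, 1.86-fold lower [1.81 to 1.92], which with Hspa1a makes 2 of 10 members past 1.5-fold lower there (8.01% of genes) and none higher (11.8%). In macrophage-like cells it was 1.53-fold lower [1.47 to 1.60], and in somatotroph-like cells 1.30-fold lower [1.28 to 1.32]. Pituicyte-like cells had 219 from 73 UMIs in 51 young cells and 729 from 539 UMIs in 87 old cells, 3.33-fold higher [2.60 to 4.31]. That young value lies below what the estimated share of free RNA would bring, and after subtraction of the profile of the smallest droplets no young UMI was left. Its log2 difference there was 0.73 with doublets kept, 0.83 as a mean over cells and 1.07 in thinned cells, against 1.73, each past 1.5-fold higher. In endothelial cell-like cells Dnajb1 was 1.51-fold higher [1.27 to 1.80], but with doublets kept its log2 difference there was -0.41. The endothelial cell-like class of that setting held 144 young and 120 old cells in place of 85 and 78. Its first leading gene was the fibroblast marker Dcn, and no fibroblast-like class formed. In pituicyte-like and in endothelial cell-like cells 2 of 10 members, Dnajb1 and Hsp90aa1, were past 1.5-fold higher, against 22.3% and 17.0% of genes. None was past 1.5-fold lower, against 10.7% and 17.0%. Among genes of at least 200 UMIs, 2 of 8 and 2 of 7 members were past 1.5-fold higher, against 7.22% and 11.3% of genes. At that minimum too none was past 1.5-fold lower, against 9.42% and 12.7%.

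Hsph1 was lower in the old library in macrophage-like cells (599 CPM at 2 months and 345 CPM at 20 months, 1.74-fold lower [1.60 to 1.89]) and somatotroph-like cells (660.3 CPM at 2 months and 377 CPM at 20 months, 1.75-fold lower [1.68 to 1.82]). In monocyte-like cells it was 2.25-fold lower [1.69 to 3.03], from 143 young and 74 old UMIs, the only member past 1.5-fold lower there (7.54% of genes), and not past it in thinned cells, at a log2 difference of -0.48 in place of -1.17. In lactotroph-like and stem cell-like cells its intervals included 1. Bag3 in macrophage-like cells had 201 CPM at 2 months and 83.7 CPM at 20 months, 2.41-fold lower [2.04 to 2.85], from 712 and 179 UMIs. It was also 1.55-fold lower [1.37 to 1.76] in somatotroph-like cells, and its higher value in T or NK cell-like cells rested on 9 young and 22 old UMIs with an interval that included 1. The somatotroph-like value fell short of 1.5-fold with doublets kept (log2 -0.56) and when each library was clustered alone (-0.52).

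Hsp90aa1 was 1.56-fold lower [1.52 to 1.61] in macrophage-like cells, at 4625 CPM at 2 months and 2965 CPM at 20 months. In the hormone-producing classes its ratios were close to 1, from 0.858 [0.826 to 0.891] in lactotroph-like to 0.916 [0.903 to 0.929] in somatotroph-like cells, the first above 1 when each library was clustered alone and the second above 1 with hormones in the total. It was higher in the old library in endothelial cell-like cells (1087 CPM at 2 months and 1865 CPM at 20 months, 1.72-fold higher [1.54 to 1.92]) and pituicyte-like cells (844 CPM at 2 months and 1421 CPM at 20 months, 1.68-fold higher [1.48 to 1.93]). With doublets kept these log2 differences were 0.07 and 0.26, against 0.78 and 0.75 without them.

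The mitochondrial chaperonins, which share a promoter region, differed from each other. Hspe1 was past 1.5-fold lower in the old library in lactotroph-like (766 CPM at 2 months and 449 CPM at 20 months, 1.71-fold lower [1.57 to 1.85]), somatotroph-like (1.63-fold lower [1.58 to 1.69]) and macrophage-like cells (1.56-fold lower [1.42 to 1.70]). With Hspa1a this makes 2 of 10 members past 1.5-fold lower in lactotroph-like cells (8.78% of genes) and none higher (19.3%). Hspd1 was past 1.5-fold in no class: in lactotroph-like and somatotroph-like cells its ratios were 1.04 [0.929 to 1.15] and 1.00 [0.959 to 1.05], and in macrophage-like cells it was 1.45-fold lower [1.31 to 1.61], past 1.5-fold with the median gene set to 0 (log2 -0.76) and in thinned cells (-0.64). In corticotroph-like and stem cell-like cells Hspd1 was higher in the old library, at 1.22 [1.13 to 1.32] and 1.21 [1.09 to 1.35], the first below 1 in thinned cells.

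Hspb1 had ratios on both sides of 1. In macrophage-like cells it measured 341 CPM at 2 months and 141 CPM at 20 months, 2.43-fold lower [2.14 to 2.76], the lowest ratio among member and class combinations with at least 20 UMIs, next to that of Bag3 in the same cells. Free RNA, which holds Hspb1, had an estimated share of 17.4% and 20.6% there. Over the alternatives the log2 difference ran from -2.51 to -1.09, so its size is uncertain. The 3 classes with the highest Hspb1 levels differed less: stem cell-like cells had 1888 CPM at 2 months and 1319 CPM at 20 months, 1.43-fold lower [1.38 to 1.49], and corticotroph-like cells 1.47-fold lower [1.40 to 1.53], while in endothelial cell-like cells the ratio was 1.07 [0.976 to 1.18]. In stem cell-like cells 1 of 10 members, Hspa1a, was past 1.5-fold lower (6.25% of genes) and none was past 1.5-fold higher (10.7%). Hspb1 was past 1.5-fold higher in somatotroph-like (31.6 CPM at 2 months and 67.2 CPM at 20 months), monocyte-like (17.2% of genes there, 1 of 10 members) and B cell-like cells. In each of these classes its level in at least 1 library does not exceed what the profile of the smallest droplets would bring. In the old library the free RNA share of somatotroph-like cells was also larger, 10.3% against 5.47%. The part of free RNA in these higher values was not tested beyond subtraction: the profile of the smallest droplets left no value for them, and that of barcodes of 500 to 900 UMIs a log2 difference of -1.69 in place of 1.09 in somatotroph-like cells.

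In somatotroph-like cells, growth hormone (Gh) took 44.4% of all UMIs at 2 months and 33.7% at 20 months, and on a total that includes hormones no member was past 1.5-fold lower: the log2 differences of Hspa1a, Hsph1, Hspe1 and Bag3 were -0.55, -0.55, -0.44 and -0.37, against -0.81, -0.81, -0.70 and -0.63, and Hspa8, Hspa1b and Hsp90aa1 lay above 0. That total moved the median of all genes by 0.26 in somatotroph-like and 0.16 in lactotroph-like cells and by under 0.1 elsewhere, while setting the median gene to 0 moved it by -0.22 in macrophage-like, -0.13 in lactotroph-like and 0.14 in endothelial cell-like cells. The make-up of the somatotroph-like class also differed between the ages: the cluster with 1128 of 4251 young cells held 79 of 1321 old ones, with the pair at 3066 and 1357, and a Malat1-poor cluster held 304 and 202, with 1339.7 and 1381. The remaining 3 clusters were lower in the old library, as was the first. Once old clusters were given the weights of the young ones, 5 in place of 4 members were past 1.5-fold lower in somatotroph-like cells, Dnajb1 joining at -0.61, and the pair stood at -0.83 in place of -0.60.

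With macrophage-like clusters weighted in the same way, 5 in place of 7 members were past 1.5-fold lower, Dnajb1 and Hsp90aa1 falling short at -0.57 and -0.54, and all 10 stayed below 1. With the median gene set to 0, 10 were past it, and 8 in thinned cells.

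The inducible pair was then read against Hspa8 within each library, which needs no total. In young cells the pair had 180.5 [177 to 184] UMIs per 100 Hspa8 UMIs in macrophage-like cells, 149.5 [136 to 164] in endothelial cell-like and 127 [123 to 131] in lactotroph-like cells. It had 114 [113 to 115] in somatotroph-like, 101 [99.0 to 102] in corticotroph-like and 75.1 [73.0 to 77.3] in stem cell-like cells, and 40.3 [35.4 to 45.7] and 25.4 [22.8 to 28.4] in B cell-like and T or NK cell-like cells. Of the 10 compared classes of the young library, the lymphoid ones thus carried the least inducible Hsp70 per constitutive Hsp70, and macrophage-like cells the most. In the old library T or NK cell-like cells were lowest (42.7), but stem cell-like (46.6) and pituicyte-like cells (59.5) lay below B cell-like cells (62.9). Old macrophage-like [145 to 154] and endothelial cell-like [138 to 159] intervals overlapped.

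The pair per Hspa8 was lower in the old library in 7 of 10 classes, in 5 of them with intervals apart. These 5 are macrophage-like cells, with 149.8 [145 to 154] when old, and somatotroph-like (87.0 [85.4 to 88.7]), corticotroph-like (76.5 [74.1 to 78.9]), stem cell-like (46.6 [44.0 to 49.3]) and lactotroph-like cells (116 [111 to 121]). Of these 5, stem cell-like cells had the widest difference in proportion. Endothelial cell-like cells had nearly equal values, 149.5 and 149, with the old one higher as a mean over cells (135 and 180.4) and in thinned cells. In monocyte-like, B cell-like and T or NK cell-like cells the pair per Hspa8 was higher in the old library with intervals apart, at 85.9 [80.7 to 91.4], 62.9 [55.8 to 71.0] and 42.7 [39.7 to 46.0]. With doublets kept, the T or NK cell-like order turned, at 49.4 when young and 45.2 when old, the B cell-like values were 61.6 and 68.0, and 8 of 9 classes were lower. Against the sum of the other 8 members, 7 of 10 classes were again lower. Empty droplets had 87.7 [85.1 to 90.2] and 81.3 [80.3 to 82.3].

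Within the pair, Hspa1a gave more UMIs than Hspa1b in every compared class of both libraries, a difference that capture can set, and their ratio differed between the libraries. Somatotroph-like cells had 2.76 [2.73 to 2.80] Hspa1a UMIs per Hspa1b UMI when young and 1.72 [1.68 to 1.78] when old, corticotroph-like cells 2.69 and 1.63, lactotroph-like cells 2.67 and 1.84, and macrophage-like cells 2.52 and 1.70. The ratio was lower in the old library in 7 of 10 classes, with intervals apart in 6, and higher in pituicyte-like (1.71 and 2.53), endothelial cell-like and monocyte-like cells, with intervals apart in 1. Empty droplets had 2.81 [2.68 to 2.95] and 2.48 [2.43 to 2.53], and barcodes of 500 to 900 UMIs, in which the order of the ages is the other way round, 1.78 [1.75 to 1.81] and 2.02 [1.96 to 2.09]. Whether read assignment between the copies differed between the libraries was not tested.

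**Figure D4:**
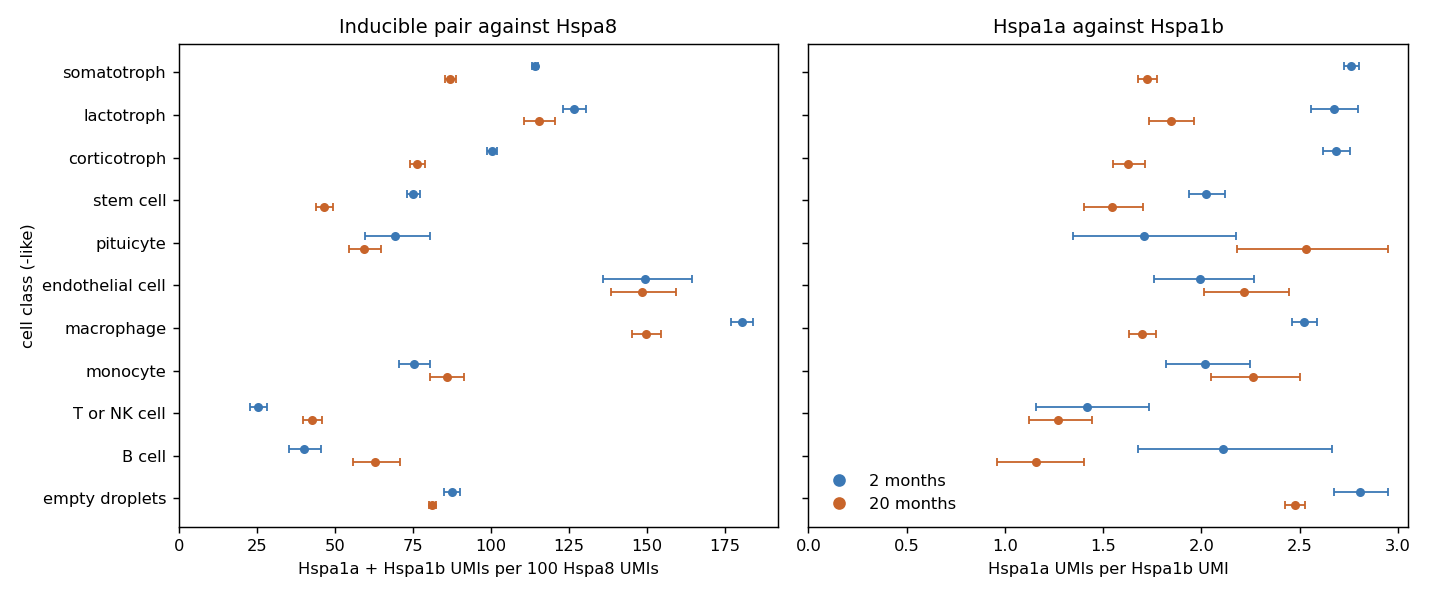
Ratios within a library for each compared class and for empty droplets of at most 100 UMIs, at 2 months (blue) and 20 months (orange), with 95% counting intervals. Left, Hspa1a plus Hspa1b UMIs per 100 Hspa8 UMIs, from 25.4 in young T or NK cell-like to 180.5 in young macrophage-like cells; right, Hspa1a UMIs per Hspa1b UMI, which is lower at 20 months in 7 of 10 classes.

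Other chaperones differed between classes in direction. Of the 8 subunits of the cytosolic chaperonin CCT, which folds actin and tubulin, 7 were lower in old lactotroph-like cells (41.0% of all genes). Of these, 3 were past 1.5-fold lower (8.78% of all genes), and the list median was -0.53 (log2, all genes 0.12). In T or NK cell-like cells 8 of 8 were lower (35.0% of all genes), none past 1.5-fold (5.40%), with a median of -0.25 (all genes 0.20). Chaperones of the endoplasmic reticulum, which fold secreted proteins, were below 1 for 12 of 12 genes in lactotroph-like cells (41.0% of all genes, median -0.42). They were above 1 for 11 of 12 in corticotroph-like cells (median 0.44, all genes 0.07), where 42.1% of all genes were below 1. In corticotroph-like cells Pdia3, a disulfide isomerase, and Calr, a lectin chaperone, measured 422 and 638 CPM and 310.0 and 461 CPM (young first), while Hspa1a and Dnajb1 were lower in the same old cells. The collagen chaperone Serpinh1 was the lowest listed gene in 5 classes, with 94.7 and 29.2 in somatotroph-like and 337 and 174 in endothelial cell-like cells.

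In macrophage-like cells, the second cytosolic Hsp90 gene, Hsp90ab1, had 4840.3 and 3294 CPM and the haem oxygenase gene Hmox1 677 and 352 CPM. The J-domain list outside Dnajb1 had 7 of 9 genes above 1 (median 0.21) and the other Hsp70 and Hsp110 genes 6 of 7 (median 0.25). Only 29.7% of all genes were below 1 in these cells and their median was 0.22, so both lists lay near all genes. The J-domain median lies below 0 once the median gene is set to 0. Of 6 ubiquitin and protein turnover stress genes, 5 were below 1 in macrophage-like cells (29.7% of all genes), with a median of -0.36. Dnaja4, another J-domain gene, had 246 and 125 in somatotroph-like and 157 and 76.8 in lactotroph-like cells, and Bag2, a further Hsp70 co-chaperone, 149 and 87.6 in somatotroph-like cells.

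Immediate early genes, such as Fos, Jun and Egr1, are switched on within minutes by stimulation and by tissue dissociation, so their values stand beside those of the inducible pair. All 18 listed genes were past 1.5-fold higher in endothelial cell-like cells (17.0% of all genes), with a list median of 1.00 on the log2 scale against -0.02 for all genes, beside the pair at 0.22. In pituicyte-like cells 14 of 17 measured were (22.3% of all genes), with a list median of 1.12 against 0.09 and the pair at 0.34. In B cell-like cells 11 of 17 were past 1.5-fold higher (27.8% of all genes), with a median of 0.87 against 0.17 and the pair at 0.20. In T or NK cell-like cells 5 of 18 were, a share close to the 24.6% of genes with at least 20 UMIs, with a median of 0.48 against 0.20 and the pair at 0.64. Of genes with at least 200 UMIs in this class 8.94% were, a minimum that Egr3, 1 of the 5, did not reach (7 young and 58 old UMIs). Monocyte-like cells had 17 of 18 above 1, where 40.6% of all genes were below 1. Of the 18, 4 were past 1.5-fold higher (17.2% of all genes), with a median of 0.36 against 0.10 and the pair at -0.01. In corticotroph-like cells all 18 were below 1 (42.1% of all genes) and 10 past 1.5-fold lower (8.01%), with a median of -0.61 against 0.07 and the pair at -0.76. Macrophage-like and stem cell-like cells had list medians of -0.02 and 0.03, against 0.22 and 0.03 for all genes, with the pair at -0.77 and -0.66. Somatotroph-like and lactotroph-like cells had 0.21 and 0.26, against 0.01 and 0.12, with the pair at -0.60 and -0.48. With doublets kept, the pair stood at -0.04, -0.05, -0.49 and -0.30 in endothelial cell-like, pituicyte-like, B cell-like and T or NK cell-like cells, all below 0. Macrophage-like cells had the highest pair levels, and the summed level of the 7 macrophage markers was 213 CPM at 2 months and 514 at 20 months in endothelial cell-like, 83.5 and 469 in T or NK cell-like, 27.0 and 126 in pituicyte-like and 85.5 and 117 in B cell-like cells, against 20134 and 16431 in macrophage-like cells. At 2 months 3, 3, 2 and 1 of the 7 markers were at 0 in pituicyte-like, B cell-like, T or NK cell-like and endothelial cell-like cells, and at 20 months 1, 1, 0 and 0. The part of macrophage RNA and of dissociation in these differences was not tested.

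**Figure D5:**
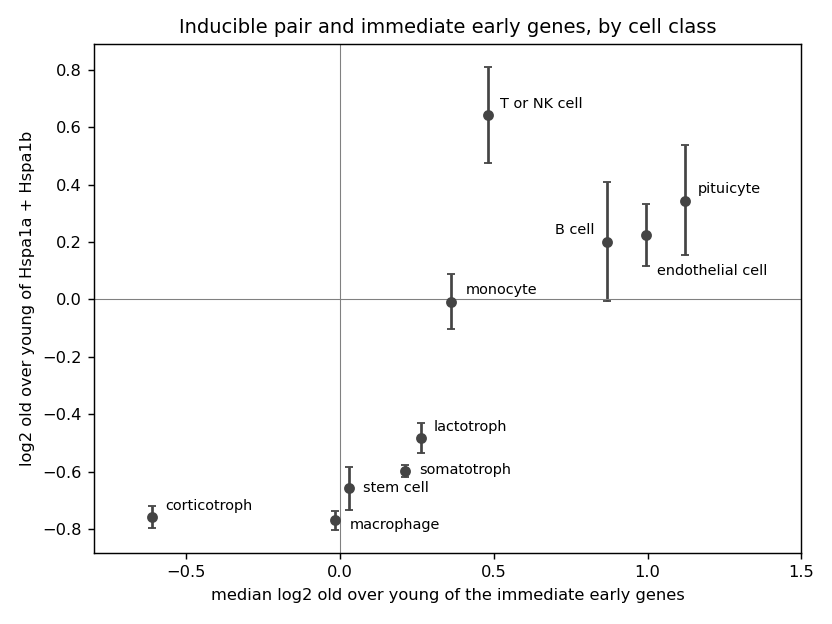
Log2 difference, old minus young, of Hspa1a plus Hspa1b (vertical axis, with 95% counting intervals) against the median log2 difference of the 18 immediate early genes (horizontal axis), 1 point per compared class. Corticotroph-like cells lie at -0.61 and -0.76, macrophage-like cells at -0.02 and -0.77, and pituicyte-like cells at 1.12 and 0.34.

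Across 25 sums of a class in a library with at least 50 cells, Bag3 followed the inducible pair most closely among the members, with a Pearson correlation of 0.77 of log2 levels. Dnajb1 and Hspa8 both had 0.66, Hsph1 had 0.63 and Hsp90aa1 0.62, while Hspe1, Hspd1 and Hspb1 had 0.28, 0.21 and 0.16. Among the genes outside the members most like the pair, of 8237 eligible, were Rasa4 (0.76), Sat1 (0.75), Zfp36 (0.72) and Tmem106a (0.71). Among those most like the mean of the other 8 members were Fos (0.79), Ubb (0.78), Jun (0.77) and Ankrd26 (0.77). These values describe 25 sums that share 2 libraries, their depth and their free RNA.

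Within a class, cells with more of one copy tended to have more of the other. Over 13 sets of cells of a class in a library, thinned to 2000 UMIs, the Spearman correlation of Hspa1a with Hspa1b had a median of 0.39 (range 0.12 to 0.78), and was highest in young macrophage-like cells. The pair's median correlation was 0.40 (range 0.21 to 0.76) with Hsp90aa1, 0.39 (range 0.19 to 0.61) with Dnajb1 and 0.31 (range 0.15 to 0.68) with Hspa8. For Hspd1 and Bag3 it was 0.09 (range -0.06 to 0.34) and 0.05 (range -0.01 to 0.41), medians near 0 whose highest values were those of young macrophage-like cells. Bag3 averaged 0.32 UMIs per thinned cell in young and 0.14 in old macrophage-like cells and fewer elsewhere, too few to judge whether it follows the pair. It had no UMI, and so no correlation, in young B cell-like cells. The immediate early genes Jun and Fos had 0.47 (range 0.20 to 0.64) and 0.36 (range 0.14 to 0.68), as high as the members. The share of mitochondrial UMIs had 0.03 (range -0.23 to 0.24) and the number of UMIs before thinning -0.02 (range -0.14 to 0.25). In macrophage-like cells the pair correlated with Hsp90aa1 at 0.76 when young and 0.65 when old, and with Hspa8 at 0.68 and 0.55. Cells of 1 library share its preparation, so no test was made of these values.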

How the data were processed

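Droplet-based single-cell RNA counts of 1 young and 1 old pooled pituitary library were used. The files the authors deposited are raw UMI counts over all barcodes, before cell calling. Cell Ranger 6.0.2 and the build GRCm39 are named in the submitters' processing notes, and version 4 in the matrix header.

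Barcodes needed at least 2000 UMIs, 500 genes and at most 15% mitochondrial UMIs. Scrublet's automatic threshold called 0% and 0.0307% of barcodes, so 679 young and 766 old barcodes, those scoring highest, were taken out. The rate was set in proportion to the barcodes passing filters, at 7.37% of 9210 young and 7.83% of 9783 old ones. These counts included free RNA, which with doublets kept took 6127 old barcodes in place of 5541. How the removals split between free RNA and cells was not tested. Both libraries were clustered together, without the members and chaperone lists, from 3000 variable genes per library, 40 principal components, 15 neighbours and Leiden resolution 1. A cluster correlating at 0.95 or more with empty droplets of 10 to 100 UMIs was set aside as free RNA. Other clusters were named from marker lists of 23 classes. UMIs were summed per class and library. Ratios have exact conditional Poisson intervals and shares exact Clopper-Pearson ones. No test was possible with 1 library per group. The interval and thinning functions were tested on simulated data.

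The members, gene lists and markers were chosen with earlier results of these data known. Named genes are the members and, of 10 chaperone and immediate early lists, up to 3 lowest and 3 highest by old over young ratio per class, with at least 50 UMIs and 50 CPM. The likest genes are the 5 with the highest Pearson correlation of log2(CPM + 10), of which 1 is not reported here. Alternatives covered the total, filters, doublets, clustering, free RNA, weighting and depth. Those on Malat1, barcodes of 500 to 900 UMIs, a minimum of 200 UMIs per gene and Hspa1a per Hspa1b were chosen after seeing the data. Python 3.11.15, scanpy 1.11.5, numpy 2.4.6, scipy 1.17.1, igraph 0.11.9, matplotlib 3.10.9 and scikit-learn 1.9.0 were used.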

Additional observations from a re-analysis of the deposited data

Results flagged for a closer look

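Several members lay past 1.5-fold lower in the old library in 1 class and past 1.5-fold higher in another. None of these differences between classes was tested, and with 1 library per age none can be. Hspb1 had a ratio of old to young of 0.412 in macrophage-like and 2.13 in somatotroph-like cells, the second at the level of free RNA in at least 1 library. For Dnajb1 the ratio was 0.537 in corticotroph-like and 3.33 in pituicyte-like cells, the second from 73 young UMIs and at a log2 difference of 0.73 in place of 1.73 with doublets kept. Hsp90aa1 had 0.641 in macrophage-like and 1.72 in endothelial cell-like cells, the second not past 1.5-fold with doublets kept, at a log2 difference of 0.07. Bag3 had 0.415 in macrophage-like and 1.52 in T or NK cell-like cells, the second from 9 young and 22 old UMIs. The summed pair of Hspa1a and Hspa1b had 0.586 in macrophage-like and 1.56 in T or NK cell-like cells, the second below 1 with doublets kept.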

How the results depend on the processing

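No paired analysis was possible because each age has 1 library and the shared replicate number names no pairing. Of 32 ratios past 1.5-fold, 27 kept their direction in every one of up to 14 alternatives that gave a value, 6 of 428 values reversed, and 11 stayed past 1.5-fold in all of them. These 11 are Hspa1a, the pair, Hspb1, Hspe1, Hsph1 and Bag3 in macrophage-like, Hspa1a, the pair and Dnajb1 in corticotroph-like, Hspe1 in lactotroph-like and Dnajb1 in pituicyte-like cells. The last had values in only 10 alternatives, the corticotroph-like ones in 13 and the others in 14. Dnajb1 in pituicyte-like cells had none after 1 of the free RNA subtractions. It also had none where the class fell under 50 cells in a library: at a minimum of 3000 UMIs, at a mitochondrial limit of 10% and without Malat1-poor barcodes. With doublets kept, the log2 difference was -0.37 for Hspb1 in B cell-like, -0.30 for the pair in T or NK cell-like and -0.41 for Dnajb1 in endothelial cell-like cells, and 2 in place of 10 values were past 1.5-fold higher, over 9 classes. Hspb1 stood at -1.69 in somatotroph-like cells after subtraction of barcodes of 500 to 900 UMIs, and in monocyte-like cells at -0.57 as a mean over cells and -0.65 in thinned cells. With hormones in the total, 0 in place of 4 members were past 1.5-fold lower in somatotroph-like cells. At 2-fold, 3 values were lower and 3 higher over all classes, 2 were lower in macrophage-like and 0 in somatotroph-like cells. Without thinning, the share of cells with a UMI was lower in the old library in 3 in place of 7 classes for the pair and in 1 in place of 4 for Hspb1. The causes were not tested, apart from the hormone total and the stricter fold, whose construction sets the count.

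Subtraction of free RNA left no value for Hspb1 in B cell-like, T or NK cell-like, monocyte-like or somatotroph-like cells, for Bag3 in B cell-like and for Dnajb1 in pituicyte-like cells with 1 or both profiles, and thinning none for Bag3 in B cell-like cells. No monocyte-like class formed with doublets kept or at resolution 0.5, and no old corticotroph-like class when each library was clustered alone. No fibroblast-like class formed with doublets kept, at resolution 0.5, or for old cells clustered alone. The endothelial cell-like class then held 144 young and 120 old, 116 and 117, and 83 and 110 cells in turn, in place of 85 and 78. Which part of a moved value came from doublets and which from other cells was not tested. The doublet rate was set on barcodes that included free RNA, so removal from cells may have differed between the ages. Depth limits Bag3 and the B cell-like, pituicyte-like, endothelial cell-like, T or NK cell-like and monocyte-like values most. Free RNA, dissociation, pool and age cannot be told apart with 1 library per age.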
